A study of Mus musculus with 5 samples.

Results

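The imprinted genes described here are 32 mouse genes that lie outside the Kcnq1 domain of distal chromosome 7. In at least some tissues they are expressed mainly or only from the copy inherited from 1 parent. They were taken from a list of gene symbols, by a rule that uses no difference between the groups. This list, the allele classes and the other gene lists below were, however, chosen with earlier results of these data known. A gene was measured by probe sets that the platform annotation assigns to its symbol alone, and the brightest of them over the 5 arrays stood for the gene. By this rule 28 of the 32 genes had a probe set, and 18 were above the level filter and were tested among 7436 genes in all. H19, Ppp1r9a, Slc22a3 and Zrsr1 had no probe set of their own, and for H19 the only probe set is shared with the microRNA gene Mir675.

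The arrays measured RNA from whole C57BL6J embryos at gestation day 9.5, 3 labelled Folr1+/+ and 2 labelled Folr1-/-. Folr1 encodes a receptor that brings folate into cells, and the study compared transcripts between embryos with and without it. Folr1-/- embryos came from Folr1+/- parents, with the dams on folate-supplemented food from before mating and through pregnancy. The diet of the dams that carried the Folr1+/+ embryos is not given separately, so a difference in diet and the genotype cannot be told apart. Decidua, chorion and amnion were dissected away, and the yolk sac is not mentioned. Whether an array holds 1 embryo or several is not stated, so the p-values measure the spread between these arrays. The RNA went through 2 rounds of amplification before labelling. The 3′ probe set of Actb was 21.1, 39.5 and 29.1 times as bright as its 5′ probe set on the Folr1+/+ arrays. On the Folr1-/- arrays this ratio was 30.5 and 22.8, so the signals of this gene had a strong 3′ bias on every array. An array of this kind reads the total transcript of a gene and cannot tell the maternal from the paternal allele, so imprinting itself was not measured. In whole embryos, fewer cells of a type and less RNA per cell cannot be told apart.

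Genomic imprinting marks the alleles with DNA methylation in the egg or the sperm, and the mark at an imprinting control region is kept through the reprogramming of the early embryo. Zinc finger proteins such as ZFP57 bind the methylated allele and recruit TRIM28 and the maintenance methyltransferase DNMT1. Folate supplies the methyl groups that end up in S-adenosylmethionine, the donor for DNA methylation. Many paternally expressed genes, such as Igf2, promote growth of the fetus, and several maternally expressed genes, such as Igf2r and Grb10, restrain it.

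The promoters of the 5 genes that passed the test are printed first, because they show how unlike the starts of these genes are in CpG content. CpG is the substrate of DNA methylation, but whether any window lies in an imprinting control region was not checked. Each runs from 250 bases before to 50 bases after a RefSeq transcription start in GRCm38.p6, 5′ to 3′ on the strand of the gene, with CpG dinucleotides in capitals. Where RefSeq lists several starts, the one with the most CpG was taken. Slc38a4 lies at chr15:97055907-97056206 on the minus strand, Asb4 at chr6:5390160-5390459 on the plus strand and Mest at chr6:30737800-30738099 on the plus strand. Nnat lies at chr2:157559828-157560127 on the plus strand and Grb10 at chr11:12037371-12037670 on the minus strand.
Slc38a4: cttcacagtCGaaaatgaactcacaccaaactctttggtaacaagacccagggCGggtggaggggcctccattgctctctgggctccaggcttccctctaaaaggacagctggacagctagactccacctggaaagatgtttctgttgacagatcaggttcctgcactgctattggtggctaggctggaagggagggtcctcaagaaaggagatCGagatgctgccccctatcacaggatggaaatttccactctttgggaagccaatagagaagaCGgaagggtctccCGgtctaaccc
Asb4: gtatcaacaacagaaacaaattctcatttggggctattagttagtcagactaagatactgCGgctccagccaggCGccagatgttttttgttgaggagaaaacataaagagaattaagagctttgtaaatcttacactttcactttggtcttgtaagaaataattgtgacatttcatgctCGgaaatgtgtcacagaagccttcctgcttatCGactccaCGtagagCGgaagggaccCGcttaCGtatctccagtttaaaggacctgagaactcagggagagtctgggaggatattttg
Mest: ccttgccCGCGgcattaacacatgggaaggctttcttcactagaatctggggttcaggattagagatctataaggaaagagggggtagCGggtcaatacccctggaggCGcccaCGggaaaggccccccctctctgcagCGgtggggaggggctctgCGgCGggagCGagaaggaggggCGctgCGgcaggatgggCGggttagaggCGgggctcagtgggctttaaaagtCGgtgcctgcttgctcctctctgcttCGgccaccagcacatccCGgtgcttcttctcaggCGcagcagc
Nnat: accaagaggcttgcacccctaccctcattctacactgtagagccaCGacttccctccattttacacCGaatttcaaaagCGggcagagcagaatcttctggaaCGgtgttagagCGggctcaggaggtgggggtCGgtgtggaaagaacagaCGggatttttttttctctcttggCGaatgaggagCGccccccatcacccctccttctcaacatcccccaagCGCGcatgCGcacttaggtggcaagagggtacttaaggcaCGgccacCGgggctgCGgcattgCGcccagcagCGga
Grb10: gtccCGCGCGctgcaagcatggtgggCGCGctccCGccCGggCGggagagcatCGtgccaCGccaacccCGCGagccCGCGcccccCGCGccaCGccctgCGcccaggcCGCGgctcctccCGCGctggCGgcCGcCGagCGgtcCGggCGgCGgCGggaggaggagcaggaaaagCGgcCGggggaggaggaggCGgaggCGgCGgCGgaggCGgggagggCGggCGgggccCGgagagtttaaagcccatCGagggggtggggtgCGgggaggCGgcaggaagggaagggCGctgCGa
The Slc38a4 window holds 5 CpG and the Asb4 window 8. Mest and Nnat hold 17 each, and Grb10 holds 45.

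Promoters were matched for 26 of the 32 genes. Their median CpG number was 17, against 8 over the 27025 genes of the table with 1 window each. Motifs were searched as plain letters on both strands. The hexamer TGCCGC, which ZFP57 recognises when its CpG is methylated, was present in 9 of the 26 windows (34.6%) and in 12.2% of all windows. Mest held it at 2 places, Nnat at 1 and Grb10 at 1, and neither Slc38a4 nor Asb4 held it. GGGGCCCC, the site of the imprinted transcription factor PLAGL1, was present in 4 windows (15.4%), against 1.11% of all. These were the windows of Peg3, Usp29, Rasgrf1 and Ppp1r9a, and those of Peg3 and Usp29 are opposite strands of 1 shared stretch that overlaps by 263 bases. GCCATNTT, a site of YY1, was present in Ube3a and Mkrn3 (7.69%), against 6.25% of all. TGCCGC and GGGGCCCC are rich in G and C and TGCCGC holds a CpG, and the windows of imprinted genes had more CpG than the median window, so these shares are descriptions only.

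The targeted gene gave signals of 57.1, 50.0 and 40.2 on the Folr1+/+ arrays and 50.2 and 41.8 on the Folr1-/- arrays. Its log2 fold change was -0.07 ± 0.20 (SE, limma adjusted p = 0.858). The sources used here do not say which part of Folr1 was deleted. The probe set therefore does not check the genotype, and the arrays are named by their labels. Transcripts of other tissues moved with the labels. The summed signal of 9 visceral endoderm and yolk sac genes was 2257 to 3263.8 on the Folr1+/+ arrays and 15895.2 to 16151.3 on the Folr1-/- arrays, and all 9 passed the test as higher. Trf, the other gene of that list, had no probe set of its own. The summed signal of 7 primitive erythroid genes was 5316.3 to 6248.3 against 142.5 to 570.7, with 6 of 6 tested genes lower. For 6 neural progenitor genes the sums were 720.8 to 799.3 against 177.9 to 203.7, with 4 of 5 tested genes lower. For 7 mesenchyme genes they were 2775.0 to 3025.5 against 2022.2 to 2514.5, with 3 of 7 lower. Of the trophoblast and decidua list 5 genes were on the array, with sums of 142.6 to 144.9 against 340.3 to 442.4, and both of the 2 tested genes were higher. No marker was at a signal of 0. Sex-linked transcripts also differed. Xist, from the inactive X chromosome, had 29.4, 35.7 and 25.0 against 419 and 770. The Y-linked Eif2s3y had 300.3, 345 and 372 against 104 and 3.13, so that Folr1-/- replicate 1 carried both. The part of these differences in the results for imprinted genes was not tested.

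Of the 18 tested imprinted genes, 5 passed limma's test at an adjusted p of 0.05, which is 27.8%, against 15.0% of all 7436 tested genes. Slc38a4, an amino acid transporter, and Asb4, a subunit of ubiquitin ligases, were higher on the Folr1-/- arrays. Mest, a hydrolase-like protein of fetal mesoderm, Nnat, a small membrane protein of neural and endocrine cells, and Grb10, an adaptor that dampens insulin and IGF receptors, were lower. That makes 2 of 18 higher, against 8.19% of all tested genes, and 3 of 18 lower, against 6.79%. Both directions thus occurred, and with 18 genes a share of 27.8% comes from few calls. Without Folr1-/- replicate 1, when the other Folr1-/- array stands alone and is assumed to vary like the Folr1+/+ arrays, 1 imprinted gene was called higher and 0 lower. The calls over all genes then fell from 1114 to 369. The 4 genes that lost their call kept their direction. Without Folr1+/+ replicate 3, which left 636 calls over all genes, 1 imprinted gene was lower. Without Folr1-/- replicate 2 there were 664 calls over all genes, and the same 5 imprinted genes passed. With each array centred on its median, the split over all genes was 769 higher and 341 lower in place of 609 and 505. The median log2 fold change over all tested genes then moved from -0.02 to 0.07, and Igf2 and Dlk1 joined the genes called higher.

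**Figure D1:**
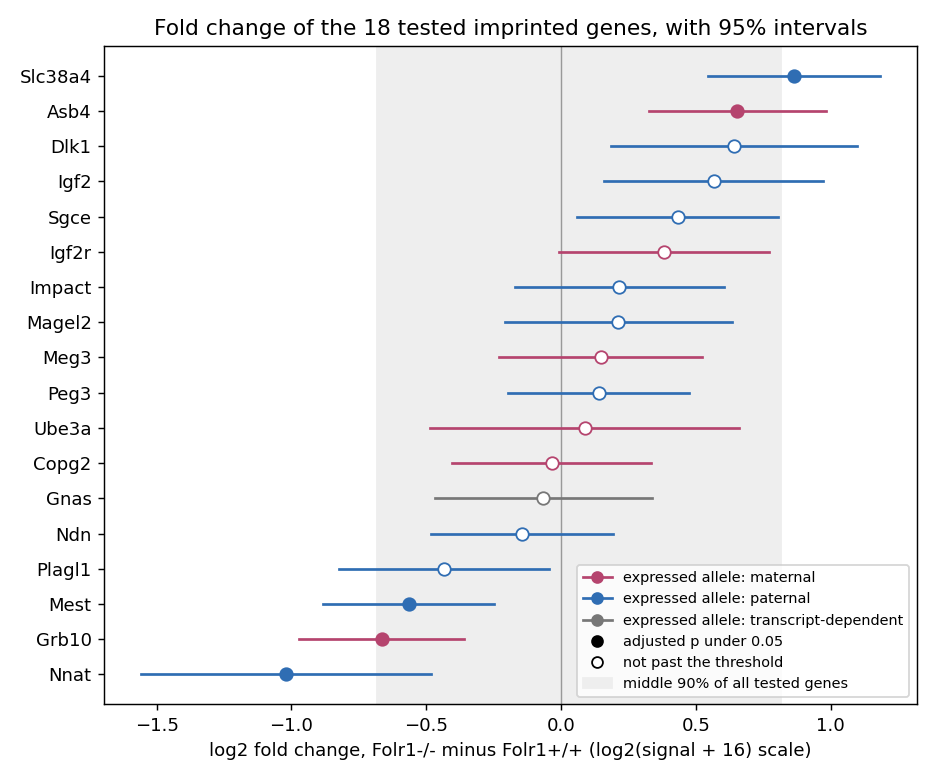
Log2 fold change (x axis, Folr1-/- minus Folr1+/+ on the log2(signal + 16) scale) with its 95% interval for the 18 tested imprinted genes (y axis, ordered by fold change). Colour gives the expressed allele, filled points passed the adjusted p threshold of 0.05, and the grey band spans the 5th to the 95th percentile of all tested genes, -0.68 to 0.82. Slc38a4 and Nnat are the 2 points outside the band, and filled points of both allele colours lie on each side of 0.

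Slc38a4 is counted as paternally expressed and encodes a sodium-coupled carrier of neutral amino acids. Its signal was 322.9, 311.0 and 318.7 on the Folr1+/+ arrays and 616.3 and 567.3 on the Folr1-/- arrays. The groups did not overlap, and the Folr1+/+ arrays lay close together. The means were 317.5 ± 6.03 (SD, n = 3) and 591.8 ± 34.7 (SD, n = 2). Slc38a4 thus rose by 0.86 ± 0.15 on the log2 scale (SE, limma adjusted p = 0.00216), with a 95% interval of 0.55 to 1.18. A second probe set of the gene gave 185.1, 228.8 and 211.0 against 325.9 and 356.7, a log2 fold change of 0.68 ± 0.16 (limma adjusted p = 0.0215 in a fit with 1 row per probe set). Slc38a4 passed under all 16 alternative settings tried, with adjusted p from 0.00119 to 0.0369. Beside it, all 9 visceral endoderm and yolk sac genes were higher, and their part in the rise was not tested.

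Asb4 lies in the Peg10 cluster of proximal chromosome 6, is expressed from the maternal allele, and supplies the substrate-binding part of a ubiquitin ligase. It gave 325.5, 337.8 and 363.1 on the Folr1+/+ arrays and 586.7 and 509.8 on the Folr1-/- arrays. The lowest Folr1-/- value was above every Folr1+/+ value. The means were 342.1 ± 19.1 (SD, n = 3) and 548.3 ± 54.3 (SD, n = 2), with a log2 fold change of 0.65 ± 0.15 (SE, limma adjusted p = 0.0131). Its second probe set gave 61.9, 54.7 and 53.5 against 105.2 and 84.2, a log2 fold change of 0.60 that did not pass (adjusted p = 0.0574 in the fit per probe set). Without Folr1-/- replicate 1 the log2 fold change of Asb4 was 0.56 and the call was lost (adjusted p = 0.133), the one loss among 16 settings, which gave adjusted p from 0.00828 to 0.133.

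Of the neighbours of Asb4 in the cluster, Sgce was tested and the others on the array were dim. Sgce encodes epsilon-sarcoglycan, a membrane glycoprotein, and is expressed from the paternal allele. Its signals were 247.7, 242.4 and 251.4 against 398.3 and 288.9, so the groups did not overlap and the Folr1-/- arrays differed widely. The log2 fold change of 0.43 ± 0.17 (SE) did not pass (limma adjusted p = 0.112), and it was 0.21 without Folr1-/- replicate 1 but 0.66 when replicate 2 of that group was left out. Peg10, a placental gene derived from a retrotransposon, had signals between 0.582 and 10.5 on the 5 arrays. Calcr, the calcitonin receptor gene, had 17.7, 11.0 and 13.3 against 24.9 and 15.8. Both were under the level filter, set at a signal of about 30.0, and were not tested.

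Grb10 is expressed from the maternal allele in most tissues and from the paternal allele in neurons, and its protein limits growth by binding the activated insulin and IGF1 receptors. The Folr1+/+ arrays had signals of 5350.6, 6109.4 and 5308.1, and the Folr1-/- arrays 3280.1 and 3757.9. Every Folr1-/- value was below every Folr1+/+ value. The means were 5589.4 ± 450.8 (SD, n = 3) and 3519.0 ± 337.8 (SD, n = 2), so that Grb10 had a log2 fold change of -0.67 ± 0.14 (SE, limma adjusted p = 0.00826). The other 2 probe sets of Grb10 were under the filter, with signals of 28.4, 30.0 and 32.5 against 9.44 and 16.9 in one and 14.5, 13.3 and 10.5 against 2.02 and 5.46 in the other. Their groups did not overlap and lay in the same order. Without Folr1-/- replicate 1 the log2 fold change was -0.57 and the call was lost (adjusted p = 0.106), and it was kept under the other 15 settings, the lowest adjusted p being 0.00558.

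Mest is a paternally expressed gene of mesodermal tissues that encodes a protein with a hydrolase fold. Its signal was 3298.0, 2805.2 and 3054.7 on the Folr1+/+ arrays and 1885.0 and 2240.5 on the Folr1-/- arrays, with no overlap. The means were 3052.6 ± 246.4 (SD, n = 3) and 2062.7 ± 251.4 (SD, n = 2), which gives a fitted log2 difference of -0.56 ± 0.15 (SE, limma adjusted p = 0.0224). Of the 5 calls, that of Mest was lost most often. It was kept under 10 of 16 alternative settings, with adjusted p from 0.012 to 0.200 over the 16. The settings that ended it included no filter on dim genes (adjusted p = 0.0634) and no intensity trend (0.0504). Leaving out 1 array also ended it, with an adjusted p of 0.0707 for Folr1+/+ replicate 1, 0.0772 for Folr1+/+ replicate 3 and 0.200 for Folr1-/- replicate 1. Over all settings the value was between -0.69 and -0.44. Beside Mest, 3 of 7 mesenchyme genes were lower, and their part was not tested.

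Copg2 overlaps the 3′ end of Mest, encodes a coatomer subunit of Golgi vesicles, and is counted as maternally expressed, a bias that is weak in many tissues. It gave 206.6, 164.3 and 170.5 against 170.3 and 179.7, with overlapping groups. The fitted difference was -0.03 ± 0.17 on the log2 scale (SE, limma adjusted p = 0.914), with a 95% interval of -0.40 to 0.33. It turned to 0.06 when each array was centred on its median.

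Nnat, the paternally expressed gene of neuronatin on chromosome 2, is a gene of the developing hindbrain and of endocrine cells. It had signals of 123.5, 122.0 and 146.9 on the Folr1+/+ arrays and 36.8 and 82.8 on the Folr1-/- arrays. The groups did not overlap, but the Folr1-/- values were far from each other. The means were 130.8 ± 14.0 (SD, n = 3) and 59.8 ± 32.6 (SD, n = 2), a fitted log2 difference of -1.02 ± 0.25 (SE, limma adjusted p = 0.0163), with a 95% interval of -1.56 to -0.48. Its size followed single arrays, at -0.57 without Folr1-/- replicate 1 (adjusted p = 0.210) and -1.47 without Folr1-/- replicate 2. The call was also lost without Folr1+/+ replicate 3 (-0.94, adjusted p = 0.0712) and with no filter on dim genes (adjusted p = 0.0663), and it was kept under 13 of 16 settings, with adjusted p from 0.0063 to 0.210 over the 16. With a pseudocount of 64 in place of 16 the log2 fold change was -0.68. Beside Nnat, 4 of 5 tested neural progenitor genes were lower on the Folr1-/- arrays, and their part was not tested.

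**Figure D2:**
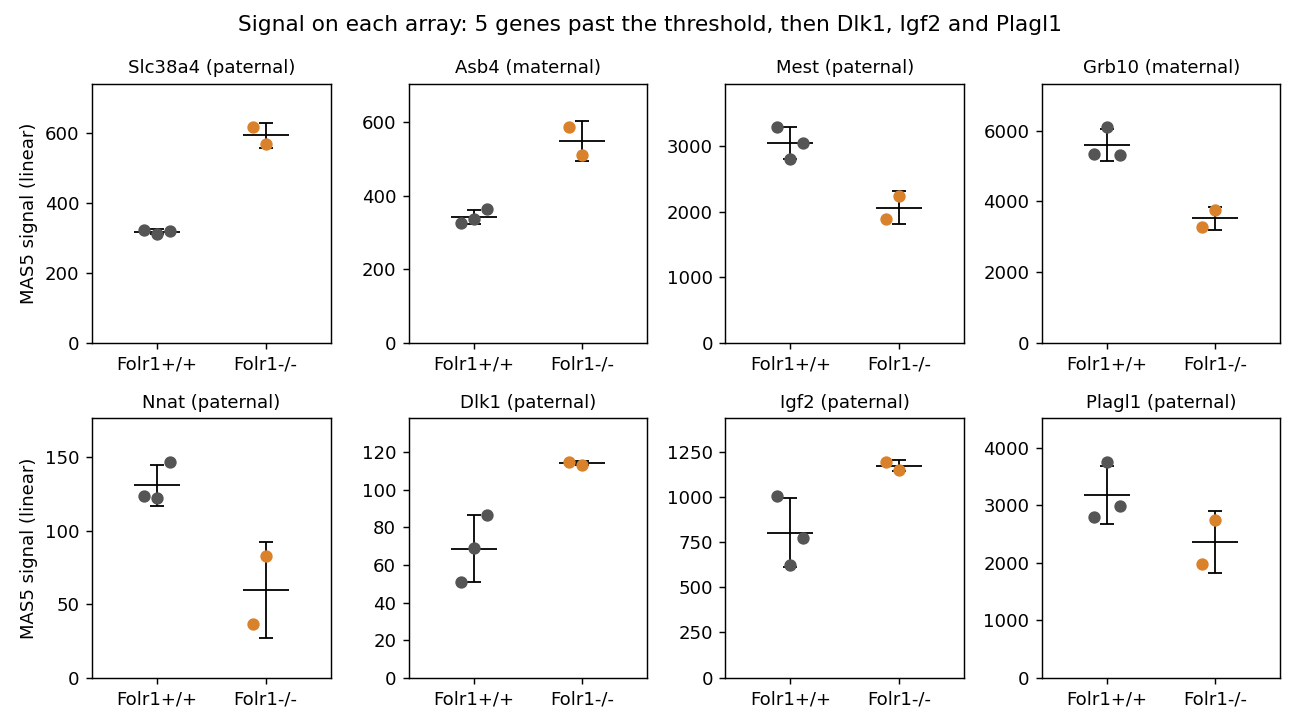
MAS5 signal on a linear scale (y axis, starting at 0 in each panel) for the 5 genes past the threshold and for Dlk1, Igf2 and Plagl1, by group (x axis, 3 Folr1+/+ and 2 Folr1-/- arrays). Points are single arrays, and the long bar and whiskers give the mean and SD. The groups do not overlap in any of the 8 panels, and the spread within a group differs between genes, with 113.3 and 115.0 for Dlk1 but 36.8 and 82.8 for Nnat on the Folr1-/- arrays.

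Among the growth factor genes, Igf2 encodes the main insulin-like growth factor of the fetus and is expressed from the paternal allele. Its signals were 1006.3, 625.4 and 773.6 on the Folr1+/+ arrays and 1195.4 and 1151.5 on the Folr1-/- arrays. The groups did not overlap, though Folr1+/+ replicate 1 came near the Folr1-/- values. The difference of 0.57 ± 0.19 (SE, log2) missed the threshold (limma adjusted p = 0.0612), with a 95% interval of 0.16 to 0.97. It passed without Folr1+/+ replicate 1 (0.74, adjusted p = 0.0177), with array weights (0.55, adjusted p = 0.0372) and after median centring (0.66, adjusted p = 0.0460), and adjusted p ran from 0.0177 to 0.811 over all alternatives. When the gene was taken as the mean of its probe sets the value was 0.09. The second probe set was dim and had a lower mean on the Folr1-/- arrays. It gave 19.8, 8.20 and 27.7 against 7.82 and 11.4, and its groups overlapped. Ins2, an insulin gene next to Igf2, was under the filter with 23.1, 17.6 and 28.3 against 28.3 and 17.1.

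Igf2r encodes the maternally expressed receptor that carries IGF2 to lysosomes and so lowers its level. The signals were 596.9, 417.1 and 513.0 against 592.9 and 737.9, and the groups overlapped. The log2 fold change was 0.38 ± 0.18 (SE, limma adjusted p = 0.174), with a 95% interval of -0.01 to 0.77, and its other tested probe set gave 0.41. The value was 0.23 when Folr1-/- replicate 2 was left out, while omitting Folr1+/+ replicate 2 gave 0.25. So of the 3 tested imprinted genes that act on insulin-like growth factor signalling, 1 fell, Grb10, and Igf2 and Igf2r had positive values that did not pass. In a list of 10 genes that work with Igf2, such as receptors, substrates and mRNA-binding proteins, 8 were on the array and 7 were tested. None of the 7 passed, against 15.0% of all tested genes, and with so few genes this is near that share. The median log2 fold change was -0.11, against -0.02 over all tested genes. Igf1 had the smallest p, with -0.66 (limma adjusted p = 0.079), then Igf2bp1 with 0.45 (adjusted p = 0.168) and Akt1 with -0.38 (adjusted p = 0.218).

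The Dlk1-Meg3 cluster of chromosome 12 carries a paternally expressed membrane protein related to Notch ligands, Dlk1, and a maternally expressed long noncoding RNA, Meg3. Dlk1 had signals of 50.7, 68.9 and 86.5 on the Folr1+/+ arrays and 115.0 and 113.3 on the Folr1-/- arrays. The groups did not overlap, and the Folr1+/+ values were spread more widely than the Folr1-/- values. A log2 fold change of 0.64 ± 0.21 (SE) did not pass (limma adjusted p = 0.0596). It passed after median centring (0.73, adjusted p = 0.0382), and the adjusted p ranged from 0.0374 to 0.258 over the alternatives. For Meg3 the values were 1025.1, 1288.1 and 1448.1 against 1242.3 and 1526.6, which overlap, with a log2 fold change of 0.15 ± 0.17 (SE, adjusted p = 0.613). Leaving out Folr1-/- replicate 2 gave 0.00 and replicate 1 of that group 0.30, while leaving out Folr1+/+ replicate 1 gave 0.01 and replicate 3 of that group 0.26. All 5 probe sets of Meg3 were above the level cut in the fit per probe set. Their log2 fold changes ran from -0.07 to 0.34, and none passed.

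The Peg3 cluster on proximal chromosome 7 was read by 3 genes, of which only Peg3 was above the filter. Peg3 encodes a paternally expressed zinc finger protein. Its brightest probe set gave 4303.8, 5090.8 and 3737.7 against 4672.2 and 4900.9, with overlap and a log2 fold change of 0.14 ± 0.15 (SE, limma adjusted p = 0.589). Omitting Folr1+/+ replicate 2 gave 0.25, while omitting replicate 3 of that group gave 0.03. The other probe sets did not give 1 answer. One had 288.7, 313.2 and 363.9 against 589.6 and 669.9, with groups far apart and a log2 fold change of 0.94 ± 0.16 (limma adjusted p = 0.00404 in the fit per probe set). The third had 61.3, 53.8 and 48.1 against 54.1 and 51.1, a log2 fold change of -0.03. The size of the difference for Peg3 thus depended on the probe set. Which transcript each one reads, and the part of the 3′ bias seen with Actb, were not tested. Usp29, a ubiquitin protease gene read in the opposite direction from the shared promoter, had 21.5, 12.8 and 14.0 against 28.8 and 7.93. Zim1, a maternally expressed zinc finger gene, had 13.0, 9.24 and 2.40 against 1.96 and 2.60.

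**Figure D3:**
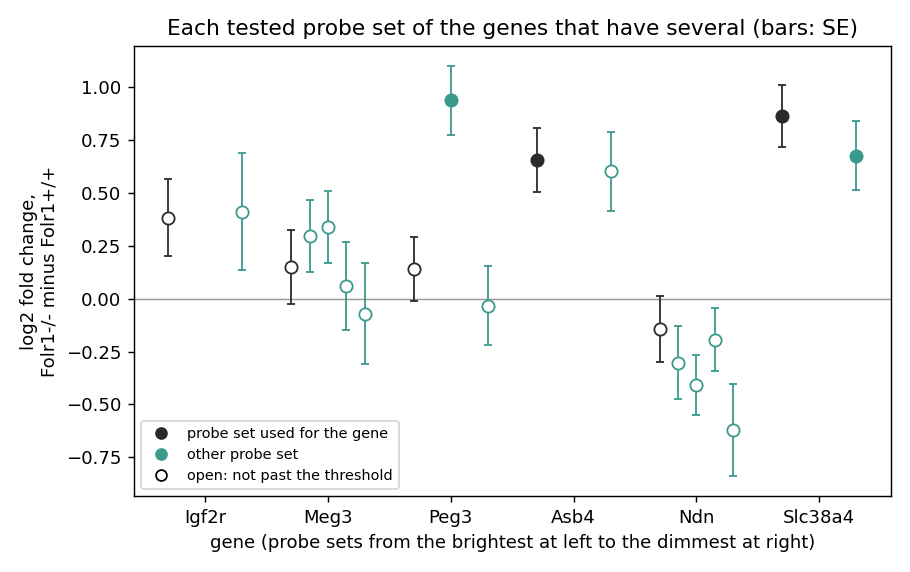
Log2 fold change (y axis, Folr1-/- minus Folr1+/+, log2(signal + 16) scale) of each tested probe set for the 6 imprinted genes with more than 1 tested probe set (x axis, ordered within a gene from the brightest to the dimmest). Bars are SE, black points are the probe set used for the gene, and filled points passed the threshold in the fit per probe set. The Slc38a4 and Asb4 probe sets lie together, all 5 Ndn probe sets lie below 0, and those of Peg3 range from -0.03 to 0.94.

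The Snrpn-Ube3a domain of central chromosome 7, the region of the Prader-Willi and Angelman syndromes in humans, showed no gene past the threshold. Ndn encodes necdin, a growth suppressor of the MAGE family found in neurons, and is paternally expressed. Its brightest probe set had 1943.5, 2196.6 and 2028.6 against 2129.8 and 1618.8, a log2 fold change of -0.14 ± 0.15 (SE, limma adjusted p = 0.574) that turned to 0.05 without Folr1-/- replicate 2. All 5 tested probe sets of Ndn had negative values, from -0.62 to -0.14, and none passed. The one at -0.62 read 382.3, 645.0 and 396.3 against 302.9 and 286.1, without overlap. Those at -0.41 and -0.19 also had no overlap, while the other tested ones overlapped. When Ndn was taken as the mean of its probe sets the value was -0.43 (limma adjusted p = 0.0806). Magel2, another MAGE gene, had 43.7, 54.8 and 46.5 against 56.2 and 60.6, a log2 fold change of 0.21 ± 0.19 (SE, adjusted p = 0.492). Ube3a encodes a ubiquitin ligase that is expressed from the maternal allele in neurons and from both alleles in most other cells. It had 561.7, 294.2 and 260.9 against 406.8 and 344.7, and the Folr1+/+ arrays spread beyond both Folr1-/- values. The log2 fold change was 0.09 ± 0.26 (SE, adjusted p = 0.853), with a 95% interval of -0.49 to 0.66, the widest among the 18 tested genes. The other probe sets of Ube3a were under the filter. One of them gave 17.0, 20.0 and 19.2 against 15.3 and 11.3 without overlap, and in the rest the groups overlapped.

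The other 3 genes of this domain were under the filter. Peg12 had 44.9, 25.1 and 35.4 against 15.4 and 20.3, and Mkrn3, a ubiquitin ligase gene, had 28.4, 21.7 and 27.6 against 13.3 and 16.2. In both, the groups did not overlap and the Folr1-/- arrays were lower. Snrpn, which encodes a splicing protein, was read by 5 probe sets, of which 4 also name Snurf, its upstream partner on the same transcript, and were not used. The fifth had 4.08, 13.4 and 4.06 against 13.6 and 15.5. In the fit with no filter the adjusted p was 0.209 for Peg12, 0.250 for Mkrn3 and 0.309 for Snrpn.

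Of the single imprinted genes on other chromosomes, Plagl1, Impact and Gnas did not pass. Plagl1, a paternally expressed zinc finger transcription factor, had 2802.7, 3764.1 and 2985.5 against 1983.0 and 2745.2. The groups did not overlap, though 2745.2 and 2802.7 are close, and the log2 fold change was -0.43 ± 0.18 (SE, limma adjusted p = 0.126). Without Folr1-/- replicate 1 it was -0.20, and without Folr1-/- replicate 2 it was -0.67. Impact, whose protein restrains the kinase GCN2 in translation control, had 343.6, 259.2 and 329.1 against 408.4 and 318.8, a log2 fold change of 0.22 ± 0.18 (SE, adjusted p = 0.448). Leaving out Folr1-/- replicate 1 gave 0.04 and replicate 2 of that group 0.39, while leaving out Folr1+/+ replicate 2 gave 0.10. Gnas yields several transcripts of different parental origin and encodes the stimulatory G protein alpha subunit. Its brightest probe set gave 2068.7, 1445.8 and 2283.3 against 1837.3 and 1789.6. The log2 fold change of -0.07 ± 0.18 (SE, limma adjusted p = 0.845) turned to 0.03 after median centring. The other probe sets of Gnas were under the filter. One of them gave 33.2, 35.2 and 23.5 against 13.6 and 17.6 without overlap, and in the rest the groups overlapped. Which transcript each one reads was not tested.

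Rasgrf1, a paternally expressed Ras exchange factor of neurons, was under the filter at 30.7, 39.6 and 24.6 against 13.7 and 20.0. Its groups did not overlap, with the lower values on the Folr1-/- arrays (adjusted p = 0.228 in the fit with no filter). Dcn, the gene of the matrix proteoglycan decorin, ranged from 7.40 to 32.9 on the Folr1+/+ arrays and had 21.7 and 19.8 on the Folr1-/- arrays. In the fit with no filter, Peg12 (-0.58), Rasgrf1 (-0.53) and Mkrn3 (-0.44) had the most negative log2 fold changes of the 10 genes under the filter, and Snrpn (0.42) the most positive. The others lay between -0.38 for Zim1 and 0.27 for Calcr, and none of the 10 passed. At these signals the added 16 understates a change, so none of the 10 was read as changed or unchanged.

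Genes of the maternal and of the paternal allele were then set side by side. Of 12 maternally expressed genes, 9 had a probe set and 6 were tested. Asb4 rose, Grb10 fell and 4 did not pass, Igf2r, Meg3, Ube3a and Copg2. Ube3a is read from both alleles in most cells, and the bias of Copg2 is weak in many tissues. In whole embryos the class is therefore not purely maternal. Of 19 paternally expressed genes, 18 had a probe set and 11 were tested. Slc38a4 rose, Mest and Nnat fell and 8 did not pass. Each class thus had calls in both directions, 33.3% of 6 genes and 27.3% of 11, against 15.0% of all tested genes.

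The median log2 fold change was 0.12 for the maternal class and 0.21 for the paternal class, against -0.02 over all tested genes and 0.14 over all 18 imprinted genes. Of the 18 values, 11 were positive and 7 negative, and of the negative ones Copg2 and Gnas turned positive after median centring. The median size of change, without sign, was 0.41 for the 18 genes and 0.26 over all tested genes. Groups did not overlap in 10 of the 18 genes (55.6%), against 46.7% of all tested genes. By class this was 2 of 6 maternal genes and 8 of 11 paternal genes, 5 of these higher and 3 lower on the Folr1-/- arrays.

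Per array, the class medians were taken as deviations from the mean of the Folr1+/+ arrays. For the maternal class they were 0.06, -0.07 and -0.02 on the Folr1+/+ arrays and 0.10 and 0.15 on the Folr1-/- arrays. For the paternal class they were -0.01, -0.03 and 0.00 against 0.17 and 0.17. Over all tested genes they lay between -0.03 and 0.01. The paternal median depended on the filter, at 0.06 with the 18 measured genes when no filter was set, while the maternal median of 9 genes was then 0.15. The median SE of a single gene was 0.17 in the maternal class and 0.18 in the paternal class. The difference between the classes was not tested.

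Reciprocally imprinted neighbours were compared within each array, as the log2 value of the maternal gene minus that of the paternal gene. The constant offset between 2 probe sets cancels when the groups are compared, and the offset itself has no meaning. Of 6 pairs, 5 could be formed, since H19 was missing, and in 2 pairs both genes were tested. Meg3 minus Dlk1 was 3.96, 3.94 and 3.84 on the Folr1+/+ arrays and 3.26 and 3.58 on the Folr1-/- arrays, a shift of -0.49. The shift was towards the paternal gene and the groups did not overlap. It was -0.29 with a pseudocount of 64. Copg2 minus Mest was -3.90, -3.97 and -4.04 against -3.35 and -3.53, a shift of 0.53 towards the maternal gene, again without overlap. The exact permutation test (2-sided) gave p = 0.1 for each, the smallest value that 3 arrays against 2 allow, and 0.125 after Benjamini-Hochberg adjustment over the 5 pairs. The 2 shifts went in opposite directions as to parental allele.

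The other pairs include a gene whose probe set was dim. Asb4 minus Peg10 shifted by 0.58 and Zim1 minus Peg3 by -0.52 (exact permutation p = 0.1 for each), and Ube3a minus Snrpn by -0.33 (exact permutation p = 0.9, adjusted 0.9). The size of these shifts was unstable. Asb4 minus Peg10 was 0.22 with a pseudocount of 1, also 0.22 when Folr1-/- replicate 1 was left out, but 0.94 when replicate 2 of that group was. Zim1 minus Peg3 was -1.41 with a pseudocount of 1 and -0.26 with 64, and Ube3a minus Snrpn was -1.02 and -0.07. Leaving out 1 array gave Ube3a minus Snrpn values from -0.64 to 0.09. The dim partners Peg10, Zim1 and Snrpn were at signals of 15.5 or less on every array. For Snrpn this describes only the probe set annotated to it alone, since the 4 shared with Snurf were not used.

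Genes of imprint maintenance and DNA methylation, Polycomb and Tet genes among them, were read from a list of 27. Of these, 19 were on the array and 16 were tested. Dnmt3b, a de novo DNA methyltransferase, rose, Ezh2, the Polycomb histone methyltransferase, and Dnmt1, the maintenance DNA methyltransferase, fell, and 13 did not pass. These calls are 18.8% of the 16 genes, near the 15.0% of all tested genes. Dnmt3b had 518.1, 421.6 and 446.2 on the Folr1+/+ arrays and 620.6 and 831.4 on the Folr1-/- arrays, a log2 fold change of 0.63 ± 0.17 (SE, limma adjusted p = 0.0286). Its groups did not overlap, and the Folr1-/- values differed from each other more than the Folr1+/+ values did. Ezh2 had 1870.4, 1572.7 and 1676.6 against 1072.7 and 1169.6, a log2 fold change of -0.60 ± 0.14 (SE, adjusted p = 0.0156). For Dnmt1 the signals were 2397.7, 2509.4 and 2908.7 against 1786.4 and 1895.7, a log2 fold change of -0.49 ± 0.14 (SE, adjusted p = 0.0376). Both fell without overlap between the groups. The median of the 16 genes was -0.18, against -0.02 over all tested genes. Zfp57, whose motif is counted above, was under the filter, at a mean signal of 8.34 on the Folr1+/+ arrays and 3.49 on the Folr1-/- arrays. DNA methylation was not measured in these samples.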

How the data were processed

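Total RNA of 5 mouse embryo samples was read on Affymetrix Mouse Genome 430A arrays, 1 array each. The deposited values are intensities, 1 linear signal for each probe set, which the authors made with MAS5, per the submitters' processing notes. The MAS5 version is not given there, and the authors' scaling was kept. Detection calls were not used, so dim signals could not be told from background.

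Of 22690 probe sets, 64 were controls, 20380 had 1 gene symbol, 691 several and 1555 none in the platform annotation. The precision is limited by having 5 arrays, which leave 3 residual degrees of freedom. Log2(signal + 16) was tested with limma 3.58.1 in R 4.3.3 (lmFit, eBayes with trend) on 7436 genes above the 40th percentile of mean log2 signal, with Benjamini-Hochberg adjustment over these genes. Fold changes are Folr1-/- minus Folr1+/+ on that scale and understate the change of dim genes. The code was tested on simulated data. Alternatives changed the pseudocount, the filter, the scaling, the probe set rule, the trend, the array weights and the replicate block, and left out each array. A fit with 1 row per probe set, in which 1414 of 10973 probe sets passed (12.9%), was added after seeing the data. Promoters and gene names came from RefSeq tables of GRCm38.p6. The text names every imprinted gene of the list, and up to 4 others per pathway list by size of change or smallest p. The imprinted genes, allele classes and lists were chosen with earlier results of these data known.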

Additional observations from a re-analysis of the deposited data

How the results depend on the processing

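Leaving out each array in turn gave 369 to 1007 calls over all genes, 1 to 3 imprinted genes higher and 0 to 3 lower. Median centring kept the total at 1110 calls but moved the split to 769 higher and 341 lower (69.3% higher, against 54.7%), with 4 imprinted genes higher. Every log2 fold change moves by the same amount in this setting, and the median over all tested genes went from -0.02 to 0.071. With no filter 1 was lower. The maternal median was 0.209 after median centring, 0.060 with the mean of probe sets and 0.070 to 0.236 without single arrays. The paternal median was 0.226 with a pseudocount of 1, 0.138 with 64, 0.055 with no filter, 0.140 with the 60th percentile filter, 0.304 after median centring and 0.161 to 0.254 without single arrays. Uncalled values that changed sign were Copg2 (0.056 after median centring, -0.094 to 0.059 without single arrays), Gnas (0.026 and -0.259 to 0.068), Ndn (-0.340 to 0.052) and Ube3a (-0.128 with the mean of probe sets, -0.116 to 0.414 without single arrays). Ube3a minus Snrpn ran from -0.639 to 0.085 without single arrays. The cause of these changes was not tested.

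No pairing of the arrays by replicate number was seen. The deviations of same-numbered arrays from their group means correlated at 0.019 and -0.056 over genes. With the replicate number as a block 899 genes passed, Mest was lost (adjusted p = 0.0593) and Dlk1 gained (0.79, adjusted p = 0.0374), the paternal median was 0.194, Ube3a was -0.116 and Gnas 0.068. The other 4 calls kept their direction and their side of the threshold under the block. Because Folr1+/+ replicate 3 has no Folr1-/- partner of its number, the block gave the same fold changes as leaving that array out. The block is therefore not separate from that setting in the counts of settings above.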
